A study of Mus musculus with 24 samples.

Results

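The comparison described here is that of the heart in mice heterozygous for a mutated Kctd1, the line with the substitution Kctd1L27N, against the heart of wild type mice. Its members were the heart arrays named by the labels, 8 of the 24 arrays of the study, 4 from heterozygous and 4 from wild type mice. All mice were of the C3HeB/FeJ strain and 18.5 weeks old. Each mouse also gave a kidney and a brain, and each heart is a separate mouse, so the spread within a group holds the difference between animals as well as array error. The labels do not give the sex, the part of the heart or the time of day of sampling. RNA was read on 1-colour bead arrays of 25697 probes, of which 23978 carry 1 gene name in the annotation used here. Probes detected (p under 0.05) in 4 hearts or more were tested, which kept 12004 probes, 11345 of them named. Levels below are log2 normalized intensities, and differences are heterozygous minus wild type on that scale. A level compares hearts on 1 probe and does not compare one gene with another.

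KCTD1 is a nuclear protein with a BTB domain, a fold through which such proteins pair with each other. It binds AP-2 transcription factors and blocks their activation of target genes, and it has also been described as a repressor of the Wnt/beta-catenin pathway. In humans, substitutions in KCTD1 cause scalp-ear-nipple syndrome, a disorder of skin appendages and ears. The heart is built of cardiomyocytes, which carry the contractile and calcium-cycling machinery and live on fatty acid oxidation, set among endothelial cells, fibroblasts, smooth muscle and macrophages.

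The arrays carried the heart's own genes. In wild type mice, 15 of 15 probes of cardiomyocyte markers were higher in heart than in the mean of brain and kidney, by a median of 8.62, against 35.9% of all 14257 probes tested there in that direction. All 7 probes of ventricular markers and 11 of 14 of atrial markers were higher in heart. Brain markers were lower in heart on 11 of 11 probes and kidney markers on 12 of 12, against 40.7% of all probes in that direction. The 12 genes of the lymphocyte and thymus list that have a named probe were all detected in fewer than 4 hearts. Heterozygous hearts had 11408 to 12258 detected probes and wild type hearts 11838 to 12649, and any pair of hearts correlated over all probes at 0.986 to 0.994, with no pair identical. Heterozygous replicate 2 stood apart in genes of the liver, which are described with the values that varied between single hearts, and results that rest on it are given with and without it.

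No gene passed the test between heterozygous and wild type hearts. With limma and a threshold of 0.05 on the Benjamini-Hochberg adjusted p, 0 of 12004 probes were called, which is 0%, and the smallest adjusted p was 0.927. At an unadjusted p under 0.05 there were 570 probes, or 4.75%, of which 253 were higher (2.11%) and 317 lower (2.64%) in heterozygous hearts. The groups were fully apart on 310 probes, or 2.58%, 159 of them higher (1.32%) and 151 lower (1.26%) in heterozygous hearts. The median difference over all probes was -0.00239.

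Leaving out heterozygous replicate 1 took the count at an unadjusted p under 0.05 to 1316, still with 0 calls and a smallest adjusted p of 0.272. With the spread estimated from the arrays of all 3 tissues together, 2 probes were called, those of Actg2 and Il6st, both at an adjusted p of 0.0469.

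The data set limits on how large an undetected difference in normalized intensity could be. These limits hold for the fit without the array number, described below. For dim probes they also depend on the background step and offset, so they do not bound the change in RNA itself. The 95% interval of the difference lay within 1.5-fold in both directions for 11517 probes, or 95.9%, and within 2-fold for 11961, or 99.6%. The median standard error was 0.106, with 0.0929 among the brightest 4001 probes and 0.118 among the dimmest 4002. There were 15 estimates that reached 1.5-fold, 11 higher and 4 lower in heterozygous hearts, and 6 reached 2-fold, all higher. Those 6 were the probes of Mup2, Apoa2, Ttr and Mup6 and 2 unnamed probes, each highest in heterozygous replicate 2, and without that heart 0 estimates reached 2-fold and 6 higher and 5 lower ones reached 1.5-fold. The plot of all probes shows this arm of large but variable differences apart from the narrow cone of the rest.

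**Figure D1:**
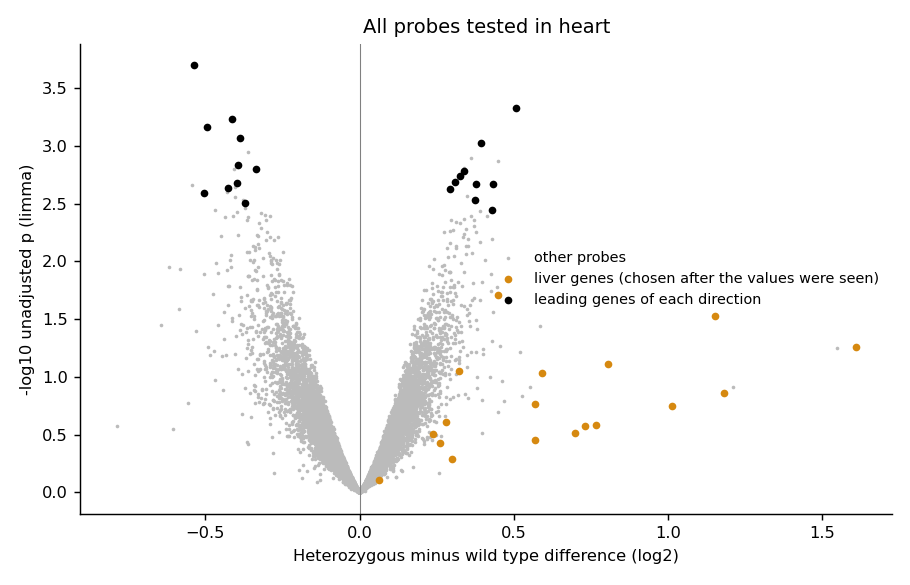
All 12004 probes tested in heart, with the heterozygous minus wild type difference (log2) on the horizontal axis and the negative log10 of the unadjusted limma p on the vertical axis. Black points are the 10 leading genes of each direction and orange points the liver genes, a list chosen after the values were seen. The liver genes reach 1.61, and 2 of their 18 probes had an unadjusted p under 0.05, against 4.75% of all probes.

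The 20 leading genes were taken as the 10 of the smallest unadjusted p in each direction among genes whose groups did not overlap, with each gene judged by its brightest probe alone. They were chosen for their difference in this contrast, so their values are a description. Il6st, the gp130 subunit shared by the receptors of interleukin 6, leukemia inhibitory factor and cardiotrophin, had levels of 4.96, 4.77, 4.97 and 5.12 in heterozygous hearts, against 4.51, 4.37, 4.65 and 4.28 in wild type hearts. Every heterozygous value lay above every wild type one, with a difference of 0.51 (SE 0.11) and an adjusted p of 0.927. The probe was dim, with intensities of 118 to 126 in heterozygous and 108 to 116 in wild type hearts. It was detected in 4 heterozygous but only 2 wild type hearts.

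Actg2, the gamma actin of visceral smooth muscle, had levels of 5.83, 5.89, 5.59 and 5.76 in heterozygous hearts, against 6.41, 6.14, 6.43 and 6.23 in wild type hearts. Here every heterozygous value lay below every wild type one, and the difference of -0.54 (SE 0.10, adjusted p 0.927) had the smallest unadjusted p of all genes, 0.000202. Its intensity was 132 to 154 in heterozygous and 164 to 188 in wild type hearts. In bulk tissue, fewer cells of a type and less RNA per cell cannot be told apart, and this holds for every cell type gene below.

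Lama2, the laminin alpha chain of the muscle basement membrane, had levels of 7.38, 7.16, 7.06 and 6.90 in heterozygous hearts, against 7.53, 7.53, 7.43 and 7.70 in wild type hearts. The groups were apart, with heterozygous replicate 1 just below the lowest wild type heart, and the difference was -0.43 (SE 0.11). Itga11, the alpha subunit of a collagen-binding integrin of fibroblasts, averaged 6.18 ± 0.15 in heterozygous and 6.57 ± 0.08 in wild type hearts (SD, n = 4 each). A further probe of Itga11 gave -0.29 and its groups overlapped.

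Ahnak, a very large scaffold protein under the plasma membrane, was the brightest of the leading genes, with levels of 10.35, 10.36, 10.33 and 10.43 in heterozygous hearts, against 10.10, 10.10, 10.09 and 9.95 in wild type hearts. Its difference of 0.31 (SE 0.08) came from tight groups, but the dim other probe of Ahnak gave -0.03. Macroh2a1, a histone variant of silent chromatin, averaged 7.29 ± 0.19 in heterozygous and 6.92 ± 0.05 in wild type hearts (SD, n = 4 each). Both were brighter than most other leading genes, whose levels lay near the lower end of the scale.

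The other higher genes were Chst8 (0.43), Tcirg1 (0.43), a subunit of the proton pump of osteoclasts and lysosomes, Dclk2 (0.39), a microtubule-binding kinase, Cldn9 (0.38), a claudin of tight junctions, Gm1673 (0.34), Dhx58 (0.33), a regulator of the RNA-sensing helicases, and the olfactory receptor Olfr982 (0.29). The other lower ones were Eif4b (-0.50), a translation initiation factor, Cep85 (-0.49), a centrosomal protein, Sobp (-0.41), Casp6 (-0.40), an executioner caspase, Bmx (-0.39), a kinase of endothelium and heart, Slc39a3 (-0.37), a zinc importer, and Dap (-0.33). All had an adjusted p of 0.927. Some were not detected in every heart. Slc39a3 was detected in 1 heterozygous and 4 wild type hearts, Sobp in 2 and 4, Bmx in 3 and 4, and Dhx58 in 4 and 2. For these genes values at background are set against detected ones. Other probes tested in heart gave 0.03 for Tcirg1 and -0.10 for Sobp, with overlapping groups, while those of Casp6 (-0.22) and Gm1673 (0.19) had the sign of the leading probe and overlapping groups.

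**Figure D2:**
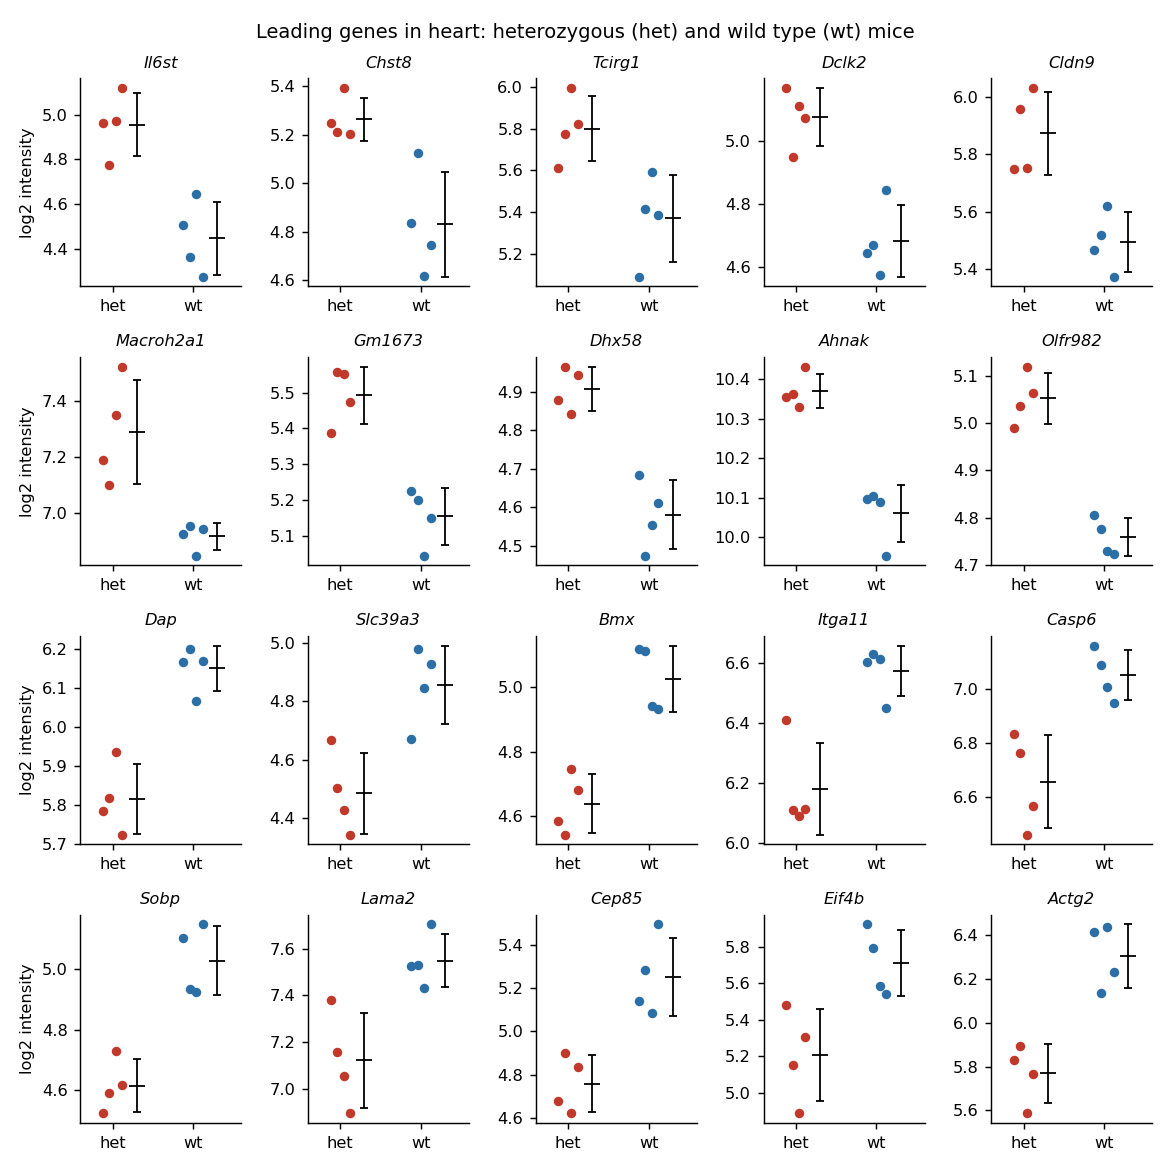
Levels of the 20 leading genes in each heart (log2 normalized intensity), with heterozygous hearts (het, red) left of wild type hearts (wt, blue). Each point is a mouse, and the black bar is the mean with 1 SD of 4 hearts; in every panel the groups are apart, by the way the genes were chosen.

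Kctd1 itself has no probe of that name in the annotation used here, so the mutated gene is not reported. Of the 21 other members of the KCTD family listed, 15 have a named probe and 11 were detected, on 15 probes. By sign, 9 gave a higher and 6 a lower mean in heterozygous hearts, with a median of 0.005, beside -0.00239 over all probes. Kctd15, the close relative of Kctd1 whose protein also inhibits AP-2 in zebrafish and human cells, had levels of 5.04, 5.05, 5.07 and 5.16 in heterozygous hearts, against 4.60, 4.88, 4.90 and 4.93 in wild type hearts. The groups did not overlap, and wild type replicate 1 was the lowest heart. The difference was 0.25 (SE 0.09, unadjusted p 0.0181, adjusted p 0.927), and it was the 1 probe of the 15 with an unadjusted p under 0.05, against 4.75% of all probes. Beside the array number, described below, it was 0.17.

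Kctd20 was apart between groups on 1 of its 2 probes, where it averaged 6.19 ± 0.08 in heterozygous and 6.38 ± 0.12 in wild type hearts (SD, n = 4 each), while its other probe gave 0.02. The remaining 12 probes overlapped between groups. Of the 15 KCTD probes 1 was thus apart and higher and 1 apart and lower, against 1.32% and 1.26% of all probes. Kctd10, an adaptor of the CUL3 ubiquitin ligase needed for heart development in mice, gave 0.04 with an interval of -0.17 to 0.24. Kctd12, a subunit of GABA-B receptors in neurons, gave -0.10, and Kctd2, Kctd5, Kctd6, Kctd9, Kctd12b and Kctd21 lay between -0.05 and 0.05. Kctd14 gave -0.18.

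None of the 5 AP-2 genes, Tfap2a to Tfap2e, passed the filter of detection in 4 hearts or more, so the known binding partners of KCTD1 give no value here. Of 14 named Wnt/beta-catenin targets 5 were detected, on 8 probes, 4 higher and 4 lower in heterozygous hearts, with a median of -0.01 and none at an unadjusted p under 0.05. The widest was Wif1, a secreted Wnt inhibitor, with levels of 5.99, 5.70, 6.00 and 5.78 in heterozygous hearts, against 5.91, 6.27, 6.91 and 5.68 in wild type hearts. These groups overlapped, and wild type replicate 3 was the highest heart, followed by wild type replicate 2.

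The 41 gene lists with a detected member, without those of liver genes, fat genes and clock outputs, which were made after the values were seen, held 566 probes, none called. At an unadjusted p under 0.05 stood 35, or 6.18%, against 4.75% of all probes, 8 higher and 27 lower in heterozygous hearts. The groups did not overlap on 2.47%, against 2.58% of all. The count of 35 was 107 without heterozygous replicate 1, and 23 without wild type replicate 1, 21 without heterozygous replicate 3 and 20 without heterozygous replicate 4. The array number, the place of a heart in the labels' order, is described below, and for many members the difference fitted beside that number is given too. The plot of gene lists sets every member beside its list's median.

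**Figure D3:**
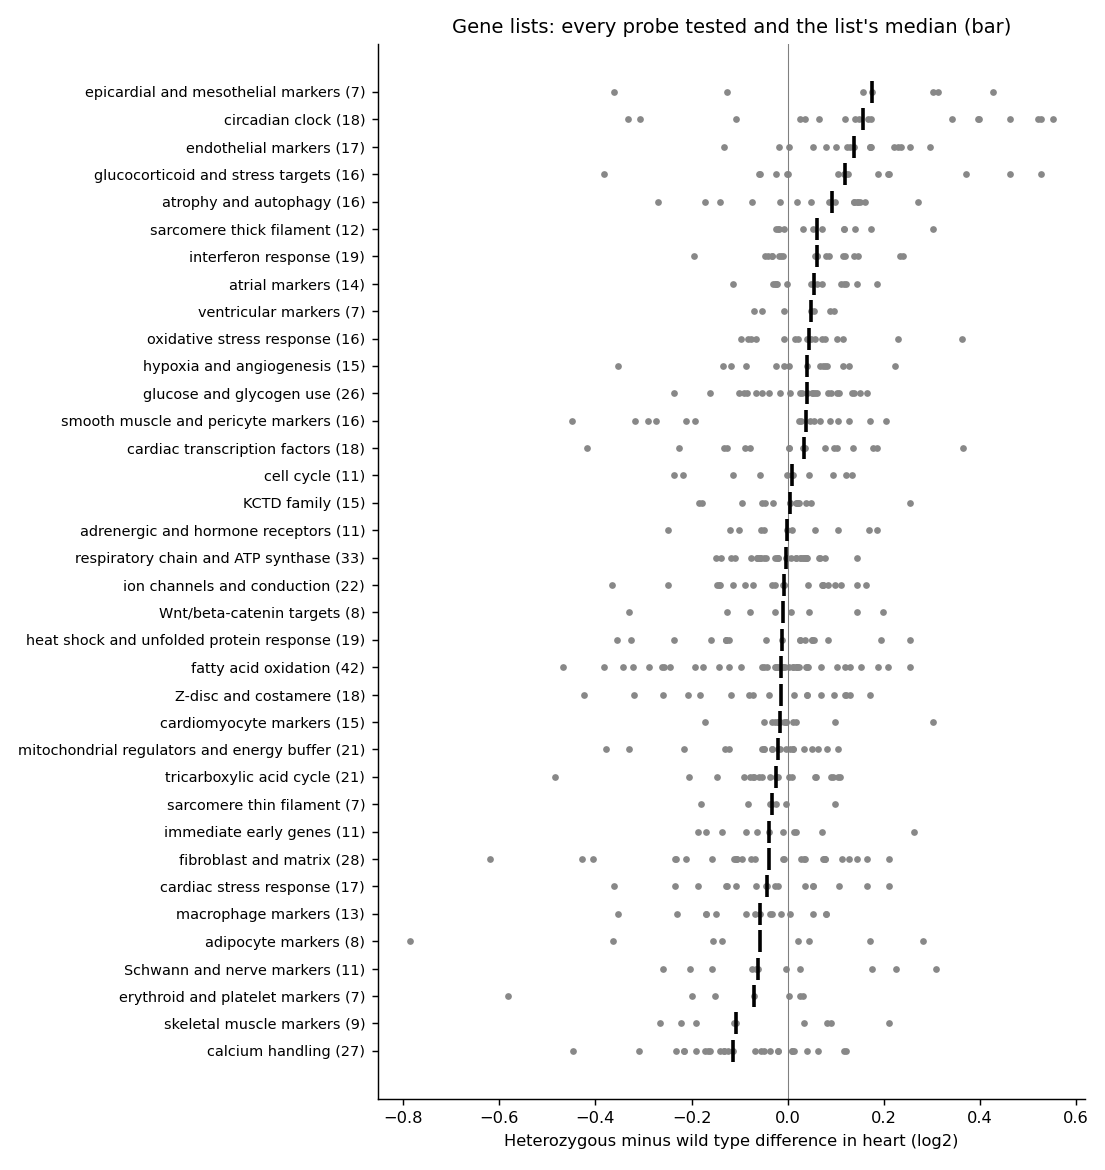
Heterozygous minus wild type differences (log2) in heart for every probe of each gene list with 5 or more probes tested, the number in brackets, without the liver, fat and clock output lists that were made after the values were seen. Grey points are probes and black bars the lists' medians, which run from -0.11 for calcium handling to 0.18 for epicardial and mesothelial markers; none of these probes passed the test.

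The contractile apparatus gave narrow differences. The 12 thick filament probes lay between -0.02 and 0.30, with 8 higher and 4 lower in heterozygous hearts and a median of 0.06. Myh6, the fast alpha myosin heavy chain of the adult mouse heart, gave -0.02 on its bright probe and 0.30 (SE 0.20) on a second one, and Myh7, the slow beta chain that rises in failing hearts, gave 0.05. Among 7 thin filament probes, Tpm1, the striated muscle tropomyosin, averaged 8.73 ± 0.04 in heterozygous and 8.91 ± 0.08 in wild type hearts (SD, n = 4 each) without overlap, at an unadjusted p of 0.0428. That list had 6 of 7 probes lower under quantile normalization, but 5 of 7 higher relative to the median of all probes with a common median in its place. On the latter scale all 12 thick filament probes were higher. Z-disc and costamere genes were split, 9 higher and 9 lower, with Pdlim5, an adaptor of the Z-disc, lowest at -0.42. That Pdlim5 probe gave -0.22 beside the array number, and the second Myh6 probe -0.09.

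Of 17 probes of cardiac stress genes, 1 was at an unadjusted p under 0.05 and 1 other had groups apart, against 4.75% and 2.58% of all probes. Nppa and Nppb, the natriuretic peptides that mark a strained heart, gave -0.03 and -0.07, with 95% intervals of -0.19 to 0.14 for Nppa and -0.30 to 0.16 for Nppb. Ankrd1, a stretch-responsive repressor, gave -0.04 and 0.11 on its probes, and Acta1, the skeletal actin of the fetal programme, -0.11. The widest was Rcan1, described below. Ccn2, a matrix-inducing growth factor, averaged 11.37 ± 0.05 in heterozygous and 11.61 ± 0.20 in wild type hearts (SD, n = 4 each), at an unadjusted p of 0.0447 and with overlapping groups. Fhl1, a LIM protein of the stretched sarcomere, was the 1 with groups apart, lower in heterozygous hearts on 1 of 2 probes at -0.13 (unadjusted p 0.153), and its other probe gave -0.13 with overlapping groups.

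Calcium handling genes had a median of -0.11, with 20 of 27 probes lower in heterozygous hearts and none at an unadjusted p under 0.05. Atp2a2, the calcium pump of the sarcoplasmic reticulum, gave 0.01 and -0.02, Pln, its inhibitor phospholamban, -0.02, and Ryr2, the release channel, -0.17. The widest was Jph2, which anchors the reticulum to the cell membrane, with 5.18, 4.28, 4.21 and 4.29 in heterozygous hearts, against 5.38, 4.60, 4.71 and 5.06 in wild type hearts. Heterozygous replicate 1 lay among the wild type hearts, and the other 3 below all of them. The difference was -0.45 (SE 0.22), and the other Jph2 probe gave -0.13. The first probe gave -0.08 beside the array number.

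Among 22 ion channel probes, 2 stood at an unadjusted p under 0.05, both lower in heterozygous hearts, against 2.64% of all probes in that direction. Kcnj2, the inward rectifier that sets the resting potential, averaged 5.00 ± 0.18 in heterozygous and 5.37 ± 0.18 in wild type hearts (SD, n = 4 each). Kcne1, the small subunit of the slow delayed rectifier, averaged 7.36 ± 0.05 in heterozygous and 7.61 ± 0.17 in wild type hearts (SD, n = 4 each). In both genes the groups overlapped at their edges.

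Of 18 probes of cardiac transcription factors, 12 were higher and 6 lower in heterozygous hearts. Mef2a, a myocyte enhancer factor, averaged 5.56 ± 0.29 in heterozygous and 5.98 ± 0.16 in wild type hearts (SD, n = 4 each), and Tbx20, a T-box factor of the adult heart, gave -0.23. Myocd, the coactivator of smooth muscle and cardiac genes, averaged 5.38 ± 0.22 in heterozygous and 5.02 ± 0.24 in wild type hearts (SD, n = 4 each). All 3 had overlapping groups and an unadjusted p under 0.05, and their other probes gave -0.09 for Mef2a, 0.002 for Tbx20 and 0.10 for Myocd. That is 3 of 18 probes, against 4.75% of all. Fitted beside the array number, Mef2a gave -0.17, Tbx20 -0.15 and Myocd 0.15.

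Fuel genes were level on balance under quantile normalization. Fatty acid oxidation had 18 probes higher and 24 lower, with a median of -0.01, beside 17 higher and 9 lower with a median of 0.04 for glucose and glycogen use. The respiratory chain and ATP synthase, on 33 bright probes, stayed between -0.15 and 0.14, with a median of -0.004. With a common median in place of quantiles, 26 of these 33 probes were higher relative to the median of all probes. On that scale 19 of 26 glucose and glycogen probes were higher, and fatty acid oxidation had 17 higher and 25 lower. Etfdh, which passes electrons from fatty acid oxidation to ubiquinone, had levels of 5.03, 4.57, 5.09 and 4.81 in heterozygous hearts, against 5.15, 5.36, 5.59 and 5.29 in wild type hearts. The groups were apart, with a difference of -0.47 (SE 0.13, unadjusted p 0.0036), but the far brighter other probe of Etfdh gave -0.12.

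The 4 probes of this list at an unadjusted p under 0.05 also held Acaa2 (-0.34), a mitochondrial thiolase, and Acot2, a mitochondrial thioesterase, whose 2 probes went opposite ways at -0.25 and 0.25. The list thus had 4 of 42 probes at that p, against 4.75% of all probes. Acaa2 gave -0.09 beside the array number, Etfdh -0.47 and the Acot2 probes -0.17 and 0.26. Among the adipocyte markers, Pparg, the nuclear receptor of fat cells, was apart between groups, with 4.38, 4.41, 4.28 and 4.30 in heterozygous hearts, against 4.59, 4.70, 4.84 and 4.70 in wild type hearts. These values are near background, and the brighter Pparg probe gave 0.04.

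Stress and hormone targets held Mt1 and Mt2, the metallothioneins that bind zinc, at 0.21 and 0.37, each with overlapping groups and an unadjusted p under 0.05, which is 2 of 16 probes of their list against 4.75% of all. They gave 0.09 and 0.21 beside the array number. Tsc22d3 and Fkbp5, targets of glucocorticoids, gave 0.21 for the brighter probe of Tsc22d3 and -0.06 for Fkbp5. Interferon genes had 11 probes higher and 8 lower in heterozygous hearts, the widest being Oasl2 at 0.24, with heterozygous replicate 3 the highest heart at 7.56.

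The remaining stress and growth lists had 1 member or none at an unadjusted p under 0.05, against 4.75% of all probes. Epas1, a hypoxia-inducible factor of endothelium, gave -0.35 on 1 of 2 probes, and Top2a, the topoisomerase of dividing cells, -0.24. Opa1, which fuses inner mitochondrial membranes, gave -0.38 on 1 of 3. These differences were -0.15 for Epas1, -0.17 for Top2a and -0.10 for Opa1 beside the array number. Hmox1, the stress-induced heme oxygenase, was the widest of the oxidative stress list at 0.36, and Hspa5, the chaperone BiP, of the heat shock list at -0.36, both above that p. Among adrenergic and hormone receptor genes, Grk5, a receptor kinase, was widest at -0.25. Gabarapl1 and Fbxo32, of autophagy and muscle protein breakdown, gave 0.27 and -0.27. Beside the array number Grk5 gave -0.04, Gabarapl1 0.03, Fbxo32 -0.06, Hmox1 0.23 and Hspa5 -0.69.

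Smooth muscle genes had 4 of 16 probes at an unadjusted p under 0.05, all lower in heterozygous hearts, against 2.64% of all probes in that direction. The 16 probes belong to 9 genes, and the count of 4 includes several probes of Acta2, so it is not a count of separate genes. The 4 probes of Acta2, the alpha actin of vascular smooth muscle, all gave lower means in heterozygous hearts, at -0.32, -0.45, -0.27 and -0.21. Its brightest probe had levels of 12.29, 12.29, 12.09 and 12.25 in heterozygous hearts, against 12.70, 12.46, 12.51 and 12.53 in wild type hearts, with no overlap and an unadjusted p of 0.00382. Myh11, the smooth muscle myosin heavy chain, had 7.58, 7.80, 7.57 and 7.73 in heterozygous hearts, against 7.92, 7.94, 7.86 and 8.13 in wild type hearts, again with no overlap. In the list 2 probes were apart and lower in heterozygous hearts and 1 was apart and higher, against 1.26% and 1.32% of all probes.

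Actg2, described above, is a further contractile gene of smooth muscle in that direction, and it was not in the list. The rest of the list differed in sign: Tagln gave -0.19, but Smtn 0.05 to 0.09, Notch3 of mural cells 0.20, Pdgfrb of pericytes 0.13 and Rgs5 0.05, so that 10 of 16 probes were higher and the median was 0.04. Acta2 and Actg2 encode near-identical proteins, and whether a probe of one reads the other was not tested. Beside the array number the brightest Acta2 probe gave -0.26, Myh11 -0.35 and Actg2 -0.48.

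Fibroblast and matrix genes had 4 of 28 probes at an unadjusted p under 0.05, all lower in heterozygous hearts, against 2.64% of all probes in that direction. Gsn, the actin-severing protein gelsolin, had levels of 8.48, 8.01, 7.75 and 7.89 in heterozygous hearts, against 9.28, 8.40, 8.59 and 8.34 in wild type hearts. Heterozygous replicate 1 lay within the wild type range, and wild type replicate 1 was the highest. Lum, the matrix proteoglycan lumican, gave -0.43 and Fstl1, a secreted glycoprotein, -0.23.

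Dcn, the proteoglycan decorin, was apart between groups on 1 probe (-0.40) and gave -0.11 on its brighter one. The fibrillar collagens did not share this, with Col1a1 at 0.14 and Col3a1 at 0.11 and -0.01. Beside the array number the differences were -0.25 for Gsn, -0.15 for Lum and -0.25 for Dcn.

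Endothelial markers were higher in heterozygous hearts on 15 of 17 probes, with a median of 0.14 and none at an unadjusted p under 0.05. Aqp1, a water channel of heart capillaries, gave 0.23 to 0.30 on 3 probes, and Pecam1, the adhesion molecule CD31, 0.13 and 0.23. The 3 Aqp1 probes gave -0.02 to 0.06 beside the array number, and the brighter and dimmer Pecam1 probes 0.04 and 0.22. The mean level of the list ran from 8.45 to 8.65 in heterozygous hearts and from 8.28 to 8.57 in wild type hearts. With a common median in place of quantile normalization, the median of all 12004 probes moved to -0.128. On that scale 9 endothelial probes were higher and 8 lower, and relative to the median of all probes 14 were higher and 3 lower.

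Macrophage markers were lower on 10 of 13 probes with a median of -0.06, led by Mrc1, the mannose receptor, at -0.35. In the epicardial and mesothelial list, Upk3b, a uroplakin of mesothelium, gave 0.43 on its brightest probe and Wt1, a factor of the epicardium, 0.31, while Tcf21, of epicardial fibroblast precursors, gave -0.36, which is 3 of 7 probes of the list at an unadjusted p under 0.05, against 4.75% of all. Wt1 gave 0.11 beside the array number, Tcf21 -0.10, the brightest Upk3b probe 0.29 and Mrc1 -0.13. Mbp, a myelin protein of Schwann cells, gave 0.31 on 1 of 3 probes and Casq1, the calsequestrin of skeletal muscle, -0.26. Slc4a1, the anion exchanger of red cells, gave -0.58, and S100a8, a granulocyte protein, -0.55 with a range of 5.37 to 6.54 in heterozygous and 5.61 to 7.54 in wild type hearts.

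Some genes varied between single hearts far more than between genotypes. The median SD within groups was 0.152 over all probes, and the 10 genes of the largest SD were those of liver and fat. Mup2, a major urinary protein made by the liver, had levels of 6.42, 10.62, 7.14 and 7.14 in heterozygous hearts, against 6.49, 5.33, 7.39 and 5.67 in wild type hearts. Heterozygous replicate 2 alone was high, and the same heart was highest for Apoa2 at 9.44 and Apoa1 at 7.87, the lipoproteins of HDL, and for Serpina1b at 8.43 and Serpina1d at 8.22, plasma protease inhibitors.

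Of 18 detected probes of a liver list chosen after these values were seen, 16 were highest in heterozygous replicate 2. Their mean level was 7.80 there, against 5.52 to 5.85 in the other heterozygous and 5.30 to 5.98 in the wild type hearts. Alb, Fga, Fgb and 10 other genes of the list were detected in fewer than 4 hearts and not tested. No leading gene is in this list, and the part of liver RNA in the other differences was not tested.

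Brown fat and lipid synthesis genes followed other hearts. Ucp1, the uncoupling protein of brown fat, had levels of 4.68, 4.76, 5.89 and 7.61 in heterozygous hearts, against 8.03, 5.50, 7.10 and 5.43 in wild type hearts. Scd1, the stearoyl-CoA desaturase, had 8.11, 8.51, 10.55 and 10.98 in heterozygous hearts, against 10.85, 9.81, 10.30 and 8.30 in wild type hearts. High hearts occurred in both groups, and heterozygous replicates 1 and 2 and wild type replicate 4 were low for both genes.

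Adipoq, the adipocyte hormone adiponectin, was highest in heterozygous replicate 3 at 8.13, as was Car3, a carbonic anhydrase of fat, at 8.65. The mean of 10 fat probes, also listed after the values were seen, ran from 6.29 to 7.80 in heterozygous and from 6.52 to 7.96 in wild type hearts. The plot of genes that varied between single hearts shows both patterns.

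**Figure D4:**
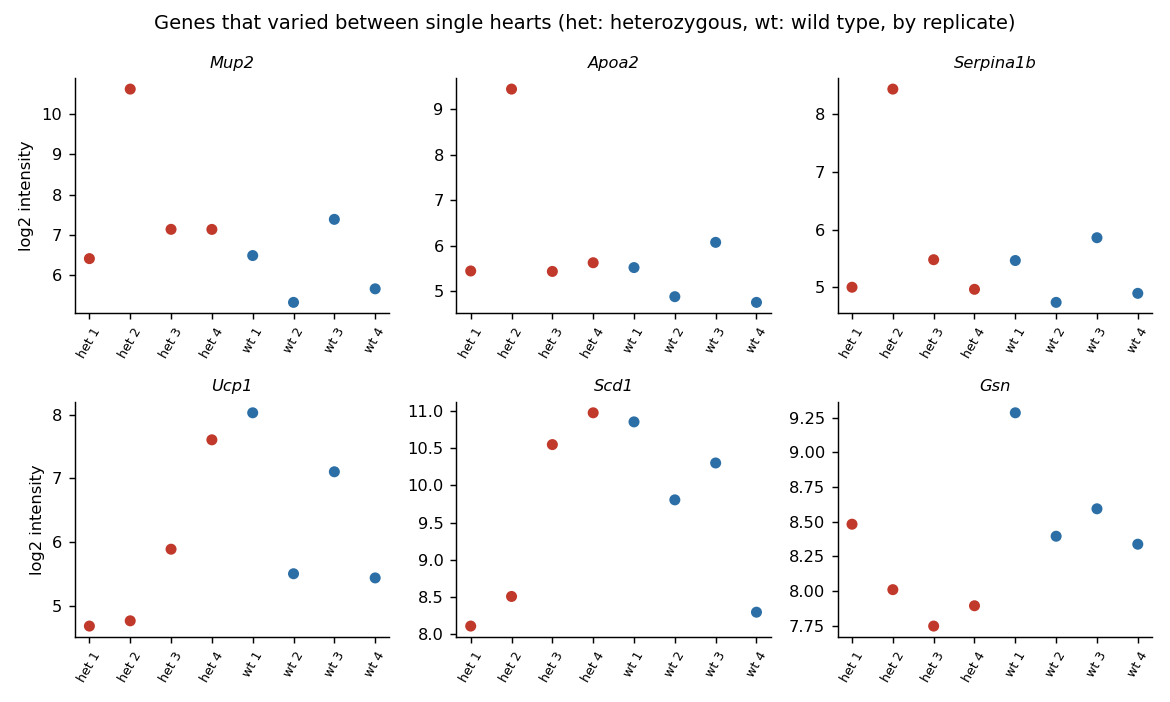
Levels (log2 normalized intensity) of Mup2, Apoa2, Serpina1b, Ucp1, Scd1 and Gsn in each heart, heterozygous replicates 1 to 4 (het, red) left of wild type replicates 1 to 4 (wt, blue). The 3 liver genes are high in het 2 alone, Ucp1 and Scd1 are high in hearts of both groups, and Gsn is highest in wt 1 at 9.28.

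A further axis ran through the hearts with the array number, the place of each heart in the order of the labels' sample numbers, 1 to 8. A mouse has the same number in all 3 tissues, and what the order stood for at the bench is not given in the sources used here. Heterozygous mice hold numbers 2, 6, 7 and 8, with a mean of 5.75, and wild type mice 1, 3, 4 and 5, with a mean of 3.25, so number and genotype overlap in part. Fitted beside genotype, the number had a slope past the threshold on 146 of 12004 probes, or 1.22%, 38 rising (0.317%) and 108 falling (0.9%) with the number. This count rests on the first hearts: it was 0 without heterozygous replicate 1, which is number 2, and 1 without wild type replicate 1, which is number 1. It was 39 without heterozygous replicate 4, which is number 8, and 82 to 93 without any other heart.

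Clock genes stood among the first of these. The circadian clock is a loop in which ARNTL and CLOCK activate the Per and Cry genes through the E-box, PER and CRY proteins shut them off, and a second arm of REV-ERB and ROR receptors acts on Arntl and Nfil3 through the RORE. In a given tissue the transcripts of these genes differ by time of day. Of 18 probes of the fixed clock list, 7 rose and 1 fell with the array number, against 0.317% and 0.9% of all probes.

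Promoters of 4 clock genes that passed are shown because they carry the letters of these elements, from the RefSeq sequences on GRCm38.p6, from 250 bases before to 50 after a gene's start. The E-box letters CACGTG and the RORE letters TAGGTCA, with its reverse TGACCTA, are in capitals. The D-box letters TTATGTAA, TTACATAA and TTACGTAA, each searched on both strands, occur in none of the 4. Ciart lies at chr3:95882179-95882478 on the minus strand, Per1 at chr11:69098699-69098998 on the plus strand, Nfil3 at chr13:52980990-52981289 on the minus strand and Arntl at chr7:113207261-113207560 on the plus strand, each given 5′ to 3′ in the direction of its gene.
Ciart: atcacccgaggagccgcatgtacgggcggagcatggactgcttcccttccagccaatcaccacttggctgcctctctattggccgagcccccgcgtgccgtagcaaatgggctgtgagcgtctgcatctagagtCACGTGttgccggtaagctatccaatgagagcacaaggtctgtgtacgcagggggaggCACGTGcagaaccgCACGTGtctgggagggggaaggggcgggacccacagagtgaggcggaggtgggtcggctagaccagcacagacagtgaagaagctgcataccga
Per1: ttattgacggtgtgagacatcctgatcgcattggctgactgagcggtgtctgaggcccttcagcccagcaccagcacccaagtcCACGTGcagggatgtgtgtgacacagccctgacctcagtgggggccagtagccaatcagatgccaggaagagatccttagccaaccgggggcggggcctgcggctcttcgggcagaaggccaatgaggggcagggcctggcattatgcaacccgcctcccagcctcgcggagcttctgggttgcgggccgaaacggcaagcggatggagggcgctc
Nfil3: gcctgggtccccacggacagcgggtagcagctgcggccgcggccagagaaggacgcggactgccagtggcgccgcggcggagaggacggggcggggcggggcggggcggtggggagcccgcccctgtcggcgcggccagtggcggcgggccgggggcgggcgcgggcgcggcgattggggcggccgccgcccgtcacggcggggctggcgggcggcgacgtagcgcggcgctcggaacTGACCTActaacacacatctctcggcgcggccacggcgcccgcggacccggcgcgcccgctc
Arntl: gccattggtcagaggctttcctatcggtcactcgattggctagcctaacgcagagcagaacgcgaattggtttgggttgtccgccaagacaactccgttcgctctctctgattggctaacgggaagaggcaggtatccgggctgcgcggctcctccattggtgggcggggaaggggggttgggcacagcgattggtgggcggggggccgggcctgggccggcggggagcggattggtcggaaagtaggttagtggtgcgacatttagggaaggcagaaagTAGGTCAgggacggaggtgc

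Ciart, which rose with the number, holds 3 E-boxes and Per1, which also rose, 1 E-box, while Nfil3 and Arntl, which fell, hold 1 RORE each. The further start of Per1 and that of Arntl in the table have windows that hold none of these letters. Of 32851 promoter windows in the table, 7.15% hold an E-box and 2.61% a RORE, and of the 8918 windows of genes tested in heart, 9.99% and 1.84%. Of the 137 windows of genes that passed, 10 hold an E-box, or 7.3%, and 5 a RORE, or 3.65%. The windows of Dbp and Usp2 hold neither, and Per2 and Bhlhe40, which passed too, have no window among those searched. The 4 genes shown were picked for the letters, so the pairing of direction with element is a description.

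Dbp, a PAR-bZIP factor driven by the clock, had levels of 8.81, 9.46, 9.43, 10.23, 10.33, 10.33, 10.53 and 10.69 at numbers 1 to 8. It rose with a slope of 0.27 (SE 0.04, adjusted p 0.017) for each step, and the last heart was 3.68-fold above the first. Per2, a repressor of the loop, had levels of 5.74, 5.97, 6.11, 7.03, 7.29, 7.28, 6.95 and 7.56. The first 3 hearts were low and the later 5 high, and the slope was 0.29 (SE 0.04, adjusted p 0.0173).

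Both probes of Ciart, a repressor also called CHRONO, rose, at 0.25 and 0.20 for each step, and both of Per1, at 0.25 and 0.20. Bhlhe40, a repressor that binds the E-box, rose at 0.13. Usp2, a deubiquitinase under clock control, rose on 1 of 2 probes at 0.18.

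In the other direction, Nfil3, a repressor that competes with DBP, had levels of 8.11, 7.73, 7.66, 7.11, 7.07, 7.17, 6.80 and 6.48 at numbers 1 to 8. It fell by 0.22 for each step (SE 0.03, adjusted p 0.0101). Arntl, the activator of the loop, fell by 0.13 (SE 0.02, adjusted p 0.0279), and its level at number 8 was 0.52 of that at number 1. Clock, Cry2, Nr1d1, Nr1d2, Per3 and Hlf did not pass.

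The slopes had the same sign within each genotype for the clock genes that passed. These genes were picked for the slope fitted over both groups of the same hearts, so the shared sign is no separate support. For Dbp they were 0.208 among heterozygous and 0.408 among wild type hearts, for Per2 0.247 and 0.409, for Arntl -0.112 and -0.189, and for Nfil3 -0.197 and -0.281, given with no test. The genotype differences of these genes were large and variable, 0.55 (SE 0.33) for Dbp and 0.53 (SE 0.34) for Per1. Beside the array number they were -0.12 and -0.11.

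Genes outside the clock moved along the same axis. Rcan1, the calcineurin inhibitor, fell by 0.33 for each step, and its levels were 8.45, 8.51, 7.96, 7.07, 7.16, 7.33, 6.55 and 6.79 at numbers 1 to 8. Fos and Egr1, immediate early genes, fell by 0.30 and 0.33, while Ier3 rose by 0.15. Of the sarcomere, Myh6 rose at 0.16 on 1 of 2 probes, with Mybpc3 at 0.12 and Myom1 at 0.13 on 1 of 2. Of the Z-disc, Pdlim5 fell by 0.16 and 0.17 on 2 of 4 probes and Myot by 0.13.

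Mitochondrial shape genes Mfn2 and Opa1 fell by 0.17 and 0.15, and the mitochondrial enzymes Acadm, Etfa and Suclg2 by 0.13, 0.10 and 0.19, each on 1 probe. The brightest probes of Rcan1, Mfn2, Acadm, Etfa, Suclg2 and Myh6 did not pass. Also among the first were Ehd1 and Srrm2, which rose, and Ppp1cb and Dctn1, which fell. Of the 146 probes, 4 had an unadjusted p under 0.05 for genotype, against 4.75% of all probes. On 139 the genotype difference had the sign of the slope. Heterozygous hearts hold the higher numbers on average, so a steep slope alone moves the difference that way.

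In the kidneys of the same mice the number had 140 of 10976 probes past the threshold, or 1.28%, and in the brains 4 of 12608, or 0.0317%. In kidney, Dbp rose at 0.19, Ciart at 0.17, Per2 at 0.17 and Usp2 at 0.14 for each step, each on 1 probe, while Nfil3 had -0.08 (adjusted p 0.461). In brain no clock probe passed, the nearest being Per1 at 0.14 and 0.13 with an adjusted p of 0.088. The difference of slopes was tested too. Heart minus kidney passed on 2 of 9790 probes, or 0.0204%, those of Mlec and Slc39a8, and heart minus brain on 0 of 10476, or 0%, with no clock probe in either. With the mouse as a block heart minus brain passed on 2 probes, those of Fos (-0.29) and Lrp4 (0.21), both at an adjusted p of 0.0478.

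**Figure D5:**
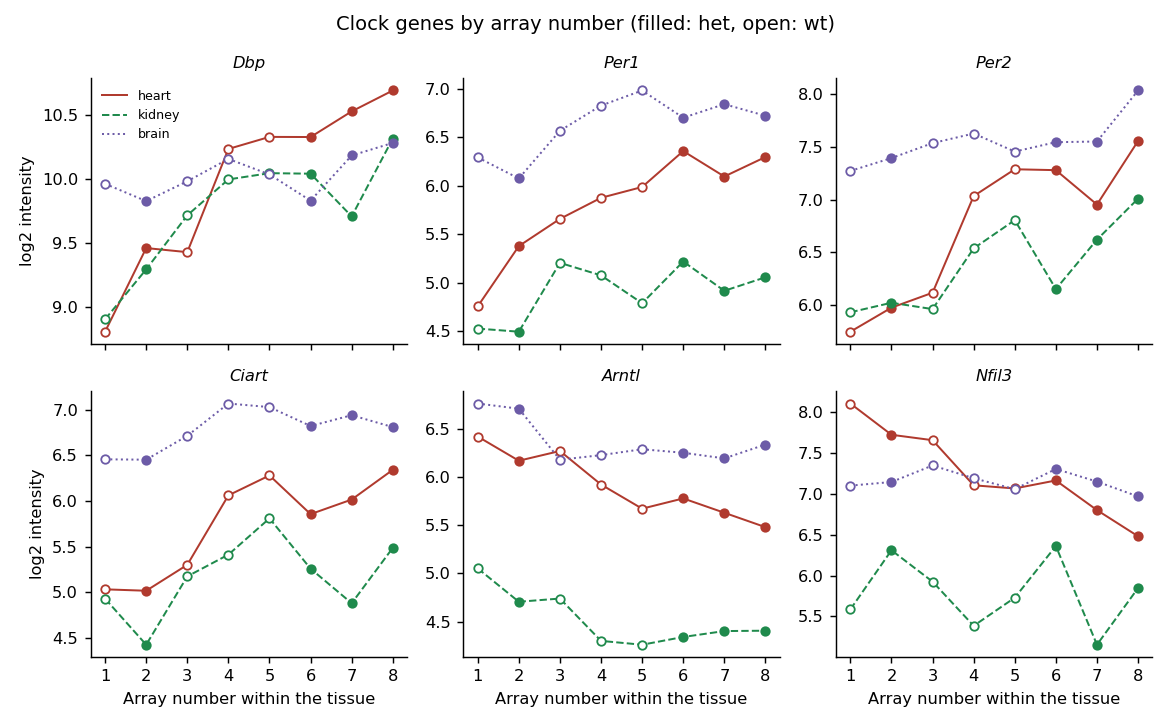
Levels (log2 normalized intensity, normalized within each tissue) of 6 clock genes against the array number, 1 to 8, in heart (solid red), kidney (dashed green) and brain (dotted violet); filled points are heterozygous and open points wild type mice. In heart Dbp, Per1, Per2 and Ciart rise and Arntl and Nfil3 fall with the number; Dbp at number 8 is 3.68-fold its level at number 1.

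The last comparison asked whether the effect of genotype in heart differed from that in the other tissues, in a fit of all 24 arrays normalized together. For heart minus kidney 14 of 9790 probes passed, or 0.143%, and 6.95% had an unadjusted p under 0.05. With the mouse as a block 29 passed, and 4 passed beside the array number. The count was 4 to 8 without wild type replicate 1, 2 or 3 or heterozygous replicate 2, 3 or 4, and 13 and 14 without the other mice. For heart minus brain 0 of 10476 passed, or 0%, and 2.9% had an unadjusted p under 0.05.

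Of the 14, 10 are probes that passed between genotypes in kidney itself, and in 13 the kidney difference was the larger. Clu, the secreted chaperone clusterin, had a heart difference of -0.01 and a kidney difference of 1.22, so that heart minus kidney was -1.23 (SE 0.13, adjusted p 1e-05). Pvalb, the calcium buffer parvalbumin, gave 0.09 in heart and -1.07 in kidney, and Olfml2b, a matrix protein, 0.10 and -1.07. Ckb, the brain-type creatine kinase, gave 0.02 in heart and -0.77 in kidney, and Ltc4s, the leukotriene C4 synthase, -0.08 and 0.82.

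The exception was Actg2, where the heart difference of -0.53 was larger than the kidney difference of 0.36, and the contrast was -0.89 (SE 0.15, adjusted p 0.00738). In kidney its intensities were low, 103 to 113, and it was detected on 4 heterozygous and 2 wild type arrays. Beside the array number the contrast was -0.91 with an adjusted p of 0.0713.

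Within kidney alone 30 probes passed between genotypes, and 16 of them were detected in heart. Of these 7 had the same sign in heart, 0 had an unadjusted p under 0.05, and the largest heart difference was 0.161 in size, for Bcat1, which makes branched-chain keto acids. The 95% interval of the heart difference left out the kidney estimate for all 16. The kidney estimates were picked for passing in kidney, and their own error was not counted, so this was likely beforehand and is only a description. Fabp3, the fatty acid carrier of heart muscle, gave -0.02 in heart (interval -0.18 to 0.15) and -0.71 in kidney. Perm1, a regulator of muscle mitochondria, gave 0.05 in heart (interval -0.20 to 0.30) and -0.57 in kidney.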

How the data were processed

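Total RNA of 8 hearts was labelled with biotin and hybridised to bead arrays. The deposited intensity of each probe is linear and not normalized, and the deposited p-value is the detection p of that probe, per the file headers; GenomeStudio 2011.1 is named in the submitters' processing notes, while the sources used here leave the steps unstated. The deposited values of the series matrix are linear intensity values normalized within a tissue, as set against the arrays, and served as an alternative. Groups, replicates and mice came from the labels.

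The 8 hearts alone went through neqc, a normexp background step and quantiles (limma 3.58.1, R 4.3.3, offset 16), and 12004 probes were tested with lmFit and eBayes, adjusted over all of them by Benjamini-Hochberg. Folds of dim probes depend on both. The number of arrays limits the precision. Contrasts between tissues used all 24 arrays normalized together. Same-numbered heterozygous and wild type hearts deviated together at correlations of -0.0404 to 0.339. With 4 hearts a group these cannot decide whether the replicate numbers pair hearts, and the main test did not pair them. Across tissues the labels tie arrays to mice. Scripts were tested on simulated data.

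Gene names came from the platform's annotation, updated through RefSeq; 1719 probes have none. Members, gene lists and tests were chosen with earlier results of these data known, and the lists of liver genes, fat genes and clock outputs and the slope contrasts after the values were seen. The rule named KCTD probes, 10 leading genes per direction, each list's widest member and any with an unadjusted p under 0.05, the 10 most variable genes, 5 per direction by array number and 3 per direction by tissue contrast. Members of lists named beyond it were chosen after their values were seen. Alternatives covered background, offset, normalization, detection filter, spread, weights, array number, replicate block, threshold and leaving out each heart.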

Additional observations from a re-analysis of the deposited data

Results flagged for a closer look

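Single hearts that stood far from the other 3 of their group are given first, by Dixon's criterion. Over 120 named probes 24 of 240 groups met it, or 10%. Chance alone gives about 1 in 20 among probes not chosen by their values. The named probes were chosen in part for their spread or difference, so the 10% cannot be read as an excess. Heterozygous replicate 2 was high for the liver genes Apoa2 (9.441, others 5.432 to 5.623), Mup6 (8.719), Serpina1b (8.433), Serpina1d (8.223) and Apoa1 (7.872). Heterozygous replicate 1 was high for Acaa2 (11.14), Pfkm (9.294, others 8.739 to 8.759), Ppp1cb (9.118), Dctn1 (8.258), Mrc1 (7.711), Itga11 (6.408), Grk5 (5.701) and Jph2 (5.184), and low for Mt1 (12.58, others 12.84 to 12.87). Heterozygous replicate 3 was high for Acot2 at 5.533.

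Wild type replicate 1 was high for Acaa2 (11.25), Pfkm (9.487) and Mt2 (4.702), and low for Kctd15 (4.603, others 4.885 to 4.925), the KCTD gene described in the report. Wild type replicate 4 was low for Ahnak (9.953), Itga11 (6.45) and Kctd12 (5.779). Wild type replicate 3 was high for Adam9 (6.966) and low for Kctd5 (6.313).

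By the test of the difference itself in limma, the genotype effect of 6 named genes differed between heart and kidney. Heart minus kidney was -1.229 for Clu, -0.9066 for Ltc4s and -0.8868 for Actg2, and 1.169 for Olfml2b, 1.157 for Pvalb and 0.7915 for Ckb.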

How the results depend on the processing

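The 20 leading genes kept their sign under every alternative in which they were tested, which their choice as genes with groups apart made likely beforehand. Some of them were not tested under the strict filter, a detection p under 0.01 on all 8 arrays, which kept 8834 probes. Of the leading genes 2 were called under 1 alternative, Actg2 and Il6st with the spread shared over all 24 arrays, where the count between genotypes was 2. It was 0 under each of the other 20 settings, the replicate number as a replicate block (966 probes at an unadjusted p under 0.05, smallest adjusted p 0.568) and an adjusted p under 0.1 included. The median SD within groups was 0.0659 with no background correction. The count of list members at an unadjusted p under 0.05 ran from 20 to 107 with 1 heart left out. The count by array number was 506 without genotype in the fit, 437 with no background correction, 419 with an offset of 50, and 0 to 93 with 1 heart left out. For heart minus kidney it was 29 with the mouse as a replicate block, 22 with no background correction, 45 with no detection filter, 4 beside the array number, and 4 to 14 with 1 mouse left out. For heart minus brain it was 1, Mbp, with no background correction and with an offset of 50, and 0 to 1 with 1 mouse left out, Arhgef15 without heterozygous replicate 1. Heart minus brain slopes passed on 2 probes, Fos and Lrp4, with the mouse as a replicate block. The causes were not tested. The 7 clock slopes followed kept their sign and lost the call in 22 of 77 alternatives, and the 6 heart minus kidney genes lost it in 15 and kept it in 63. With 4 hearts a group, the median 95% interval reached 0.231 to either side, wider (0.257) for probes near background than for bright ones (0.203).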
